A study of Aptenodytes patagonicus with 7 samples.

Results

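Matrix metalloproteases (MMPs), ADAMTS proteases and the tissue inhibitors of metalloproteases (TIMPs) were examined in pectoralis muscle biopsies of young king penguins (Aptenodytes patagonicus) before and after acclimation to marine life. The 6 genes were MMP2, MMP9, TIMP2, TIMP3, ADAMTS1 and ADAMTS8, and their members were all probe sets to which the array annotation gives one of these symbols and no other. This gave 9 of the 36897 probe sets with deposited values, namely 1 each for MMP2, MMP9 and TIMP3 and 2 each for TIMP2, ADAMTS1 and ADAMTS8. All 9 were kept, since no further filter on low values was applied here. The authors had already kept only probes above background in at least 1 array. The never-immersed group (NI) held 4 juveniles (3 females and 1 male, NI bird 4) caught before their first entry into cold sea water. The sea-acclimated group (SA) held 3 juveniles (2 females and 1 male, SA bird 3) that had finished their acclimation. All were untreated wild birds biopsied under isoflurane, and each contributed 1 array. The 2 groups are different birds, so no bird was measured before and after, and age, season and sea life cannot be told apart. The exact ages were not given in the sources used here.

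These genes act on the extracellular matrix, the mesh of collagens, fibronectin and proteoglycans around muscle fibres. MMPs are secreted or membrane-bound zinc proteases that cleave collagens and other matrix proteins, and they are made as inactive precursors. ADAMTS proteases are related secreted enzymes with thrombospondin repeats, many of which cut large proteoglycans. TIMPs bind the active site of MMPs, and TIMP3, which stays attached to the matrix, also blocks several ADAM and ADAMTS enzymes. In muscle such enzymes are known for remodelling of the matrix during growth, training and repair.

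Of the 9 probe sets, 1 of ADAMTS8 was higher in SA and the 1 of MMP2 was lower at an adjusted p under 0.10 from limma, and the other 7 did not pass (3 of the 9 had an unadjusted p under 0.05, as did 10.4% of all probe sets). This threshold was passed by 1.07% of all 36897 probe sets, 0.417% of them higher and 0.65% lower in SA. These were 154 higher and 240 lower by the sample labels. In the text of the study the totals of higher and lower genes stand the other way round, but the array ratios it lists for the genes chosen by the same method and tested by PCR have the sign that the labels give. The ADAMTS8 probe set lay at a log2 difference of 1.42, a 2.67-fold higher intensity in SA, and the MMP2 probe set at -0.59, or 0.665 times the NI intensity. The difference largest in size among the 9 was that of TIMP3 (-1.50, a 2.82-fold lower intensity in SA), and it did not pass (limma adjusted p = 0.119). MMP9, TIMP2, ADAMTS1 and the other probe set of ADAMTS8 lay between -0.18 and 0.68, with overlap between the groups in each. No SA bird overlapped any NI bird in 3 of the 9 probe sets (MMP2, TIMP3 and ADAMTS8), while this held for 10.3% of all probe sets. The median difference over the 9 was -0.13, against 0.01 over all probe sets.

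The values are log2 intensities of 1 chicken probe per probe set, which the authors had chosen as the brightest and quantile normalized between arrays. The probe binds a penguin transcript whose match to it is not known here, so brighter and dimmer describe the signal on the array and not the amount of transcript. Arrays correlated at r between 0.941 and 0.979 over all probe sets. On the first principal component (32.6% of the variance) SA bird 1 (-12.7) lay among the NI birds, which ran from -39.4 to 6.85. SA birds 2 and 3 were at 44.2 and 33.0. SA bird 1 stood apart on the second principal component (23.0% of the variance, 50.2, the next bird 5.21). The calls of the members and of the related genes were also computed without SA bird 1. The 11 measured fibre genes of the skeletal muscle list were at or above the 89.5th percentile of brightness, with the skeletal actin ACTA1 at the top. Quantile normalization gives the top value of each array the same number. ACTA1 thus had 15.27 with an SD of 0 in both groups, and its difference of 0 carries no information. In a biopsy, fewer cells of a type and less RNA per cell cannot be told apart.

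**Figure D1:**
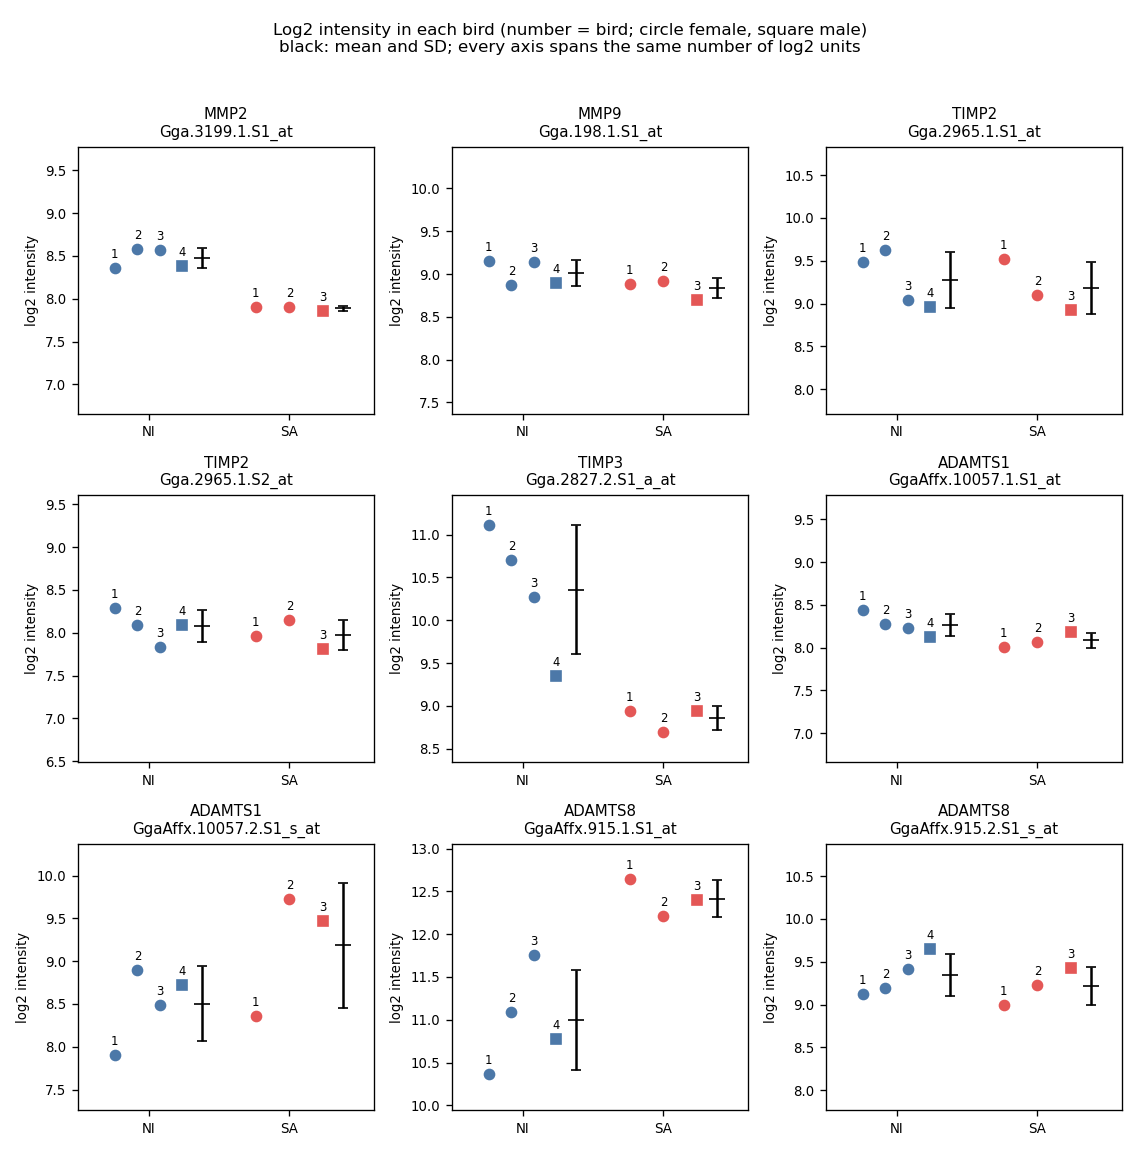
Log2 intensity (vertical axis) of the 9 probe sets in the 4 NI (blue) and 3 SA (red) birds, with the bird's number at each point, circles for females, squares for males and the group mean ± SD in black. Each panel has its own axis start but the same span. The groups are apart in MMP2, TIMP3 and the first ADAMTS8 panel and overlap in the other 6.

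MMP2, or gelatinase A, cleaves denatured collagens and collagen IV of basement membranes. Its probe set (chicken Entrez gene 386583) had log2 intensities of 8.36, 8.58, 8.57 and 8.38 in NI birds 1 to 4. It had 7.91, 7.90 and 7.85 in SA birds 1 to 3. All SA birds were therefore below all NI birds, with a gap of 0.46 between the groups, and the SA values lay close together. The means were 8.48 ± 0.118 (SD, n = 4) and 7.89 ± 0.0286 (SD, n = 3), which differed by -0.59 on the log2 scale (95% interval -0.83 to -0.34, standard error 0.11, limma adjusted p = 0.0639). With all 35 splits of the birds enumerated, the exact permutation p (two-sided) was 0.0286, the smallest that 4 birds against 3 allow. In order of p this probe set was number 233 of the 36897. In brightness it lay at the 37.9th percentile, and no background was subtracted, so an unmeasured share of its signal is background.

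MMP9, gelatinase B, shares many substrates with MMP2 and is abundant in granulocytes and macrophages. Its probe set (Entrez gene 395387) had 9.16, 8.87, 9.14 and 8.89 in NI birds 1 to 4 and 8.88, 8.92 and 8.70 in SA birds 1 to 3. NI birds 1 and 3 were the highest and SA bird 3 the lowest, while the remaining birds lay within 0.05 of each other. The difference of -0.18 (standard error 0.12) did not pass (limma adjusted p = 0.708), and its 95% interval ran from -0.46 to 0.10. A fall of up to 0.46 or a rise of up to 0.10 is thus within the error.

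TIMP2 inhibits MMPs and, in a complex with the membrane protease MMP14, also takes part in activating the MMP2 precursor. Its brighter probe set (both Entrez gene 374178) had 9.49, 9.62, 9.04 and 8.95 in NI birds 1 to 4 and 9.52, 9.10 and 8.92 in SA birds 1 to 3. The spread within each group (SD 0.330 in NI and 0.308 in SA) exceeded the difference of -0.09 (limma adjusted p = 0.932). The dimmer probe set ranged from 7.83 to 8.29 in NI and from 7.81 to 8.15 in SA, with a difference of -0.10 (adjusted p = 0.876). Both probe sets of TIMP2 gave nearly the same small difference, and the 95% intervals were -0.55 to 0.36 and -0.42 to 0.21. The sign of the brighter one was not stable, since it lay at 0.022 without NI bird 2 and at 0.036 without SA bird 3.

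TIMP3 binds the matrix, inhibits MMPs and the membrane protease ADAM17, and competes with VEGF for its receptor KDR. Its probe set (Entrez gene 396483) had 11.11, 10.70, 10.27 and 9.35 in NI birds 1 to 4. In SA birds 1 to 3 it had 8.94, 8.70 and 8.94. The SA birds were close together and below every NI bird, but the NI birds spread over 1.76 log2 units and NI bird 4 was 0.40 above the highest SA bird. The means were 10.4 ± 0.756 (SD, n = 4) and 8.86 ± 0.143 (SD, n = 3). The log2 difference of -1.50 (standard error 0.34) was number 77 of 36897 in size and number 533 in order of p. It did not pass over all probe sets (limma adjusted p = 0.119), though its own 95% interval, -2.27 to -0.72, did not include 0. The exact two-sided permutation p was 0.0571. Without NI bird 4, the only male of its group, the difference was -1.83 and passed (limma adjusted p = 0.0331). With all birds and sex as a covariate it was -1.44 and did not pass (limma adjusted p = 0.115).

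ADAMTS1 cleaves the proteoglycans versican and aggrecan and limits vessel growth. Its dimmer probe set (both Entrez gene 418479) ranged from 8.12 to 8.44 in NI and from 8.01 to 8.18 in SA, a log2 difference of -0.18 (95% interval -0.44 to 0.09, limma adjusted p = 0.69). The brighter one, whose ID ends in _s_at, had 7.90, 8.90, 8.48 and 8.73 in NI birds 1 to 4 and 8.36, 9.73 and 9.46 in SA birds 1 to 3. SA birds 2 and 3 were above every NI bird, while SA bird 1 was below 3 of the 4. The log2 difference was 0.68 (95% interval -0.07 to 1.43, limma adjusted p = 0.538). The pair thus had differences of opposite sign, and neither was beyond its error. Without SA bird 1 the brighter probe set lay at 1.09 and still did not pass (limma adjusted p = 0.127).

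ADAMTS8 resembles ADAMTS1 in domain structure, can cleave aggrecan and inhibits endothelial growth in culture. Its brighter probe set (both Entrez gene 769222) had 10.36, 11.09, 11.75 and 10.78 in NI birds 1 to 4. In SA birds 1 to 3 it had 12.64, 12.21 and 12.40. Every SA bird was above every NI bird, with a gap of 0.46 between NI bird 3 and SA bird 2. The means were 11.0 ± 0.587 (SD, n = 4) and 12.4 ± 0.215 (SD, n = 3), which differed by 1.42 on the log2 scale (95% interval 0.78 to 2.05, standard error 0.28, limma adjusted p = 0.078). The exact two-sided permutation p was 0.0571, 2 of the 35 splits being at least as large in size. In size this difference was number 98 and in order of p number 303 of the 36897.

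The dimmer ADAMTS8 probe set, whose ID ends in _s_at, did not show this rise. It had 9.12, 9.19, 9.41 and 9.65 in NI birds 1 to 4 and 8.99, 9.23 and 9.43 in SA birds 1 to 3, a log2 difference of -0.13 (95% interval -0.49 to 0.24, limma adjusted p = 0.861). The log2 gap between both probe sets within a bird was between 1.13 and 2.34 in NI and between 2.96 and 3.65 in SA, without overlap. The effects of the pair differed by 1.55 (exact two-sided permutation p = 0.0571). The same difference within the pair was -0.86 in ADAMTS1 (exact permutation p = 0.143) and 0.01 in TIMP2 (exact permutation p = 0.943), the 3 pairs compared. On Affymetrix arrays the suffix _s_at marks a probe set designed to match several transcripts, which may come from different genes. In both ADAMTS genes the probe set with this suffix and the one without differed in sign. The positive difference was in the one with the suffix in ADAMTS1 and in the one without it in ADAMTS8. Neither difference of ADAMTS1 was beyond its error, and a part of the suffix in these signs was not tested.

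**Figure D2:**
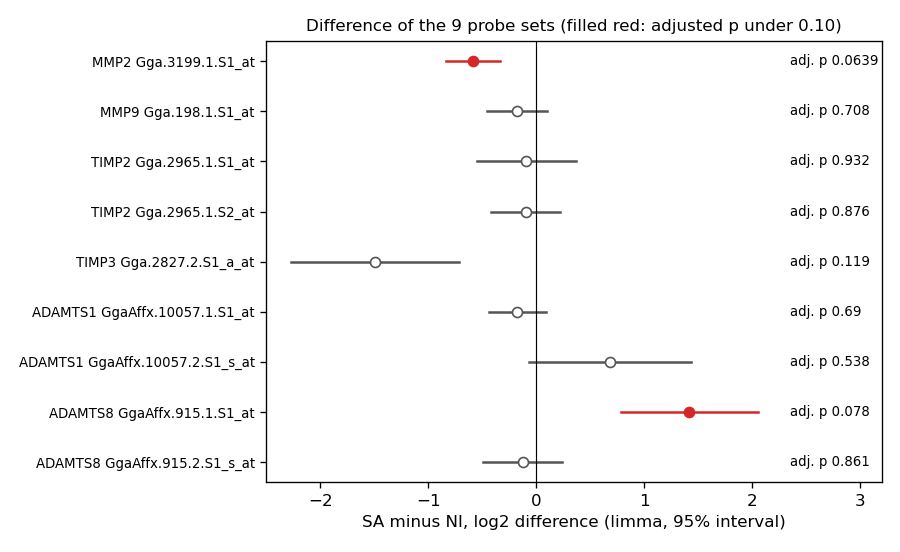
SA minus NI log2 difference of each probe set (points) with its 95% interval from limma, not adjusted for multiple tests (lines), and the adjusted p at the right. Filled red points are the 2 probe sets with an adjusted p under 0.10, MMP2 at -0.59 and ADAMTS8 at 1.42, while TIMP3 at -1.50 has a wider interval and an adjusted p of 0.119.

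The calls of MMP2 and ADAMTS8 were not stable when 1 bird was left out. For MMP2 the difference stayed between -0.63 and -0.55, but it passed in none of the 7 fits (limma adjusted p from 0.109 to 0.2). ADAMTS8 stayed between 1.21 and 1.67 and passed in 1 fit, without NI bird 3 (adjusted p = 0.0205). In the other 6 its adjusted p ran from 0.14 to 0.212. With sex as a covariate the differences were -0.58 and 1.43, and neither passed (limma adjusted p = 0.102 and 0.11).

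**Figure D3:**
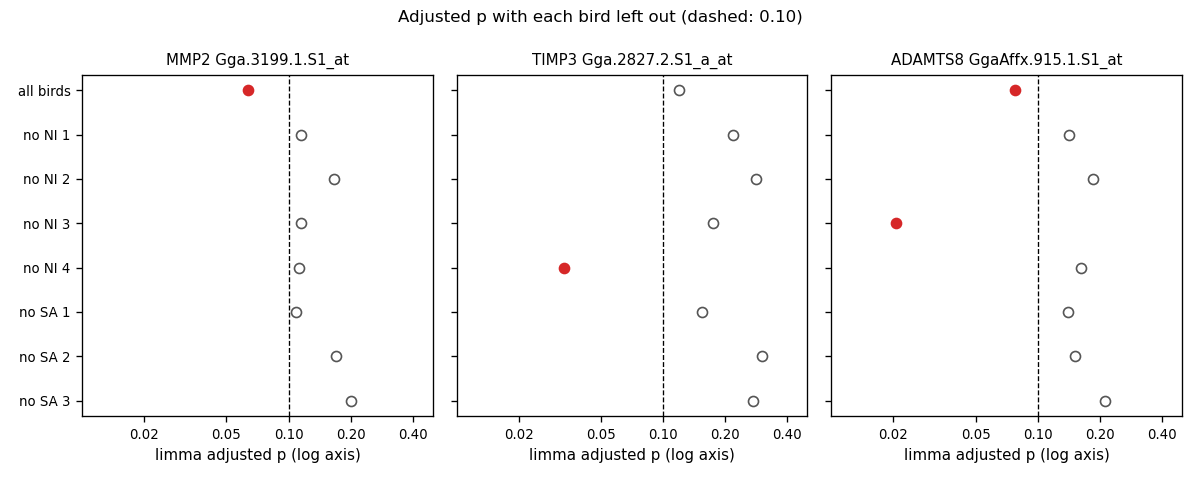
Limma adjusted p (log axis) of MMP2, TIMP3 and the brighter ADAMTS8 probe set with all birds and with each bird left out, with the 0.10 threshold dashed and values under it filled. MMP2 crosses the line when any bird is removed, TIMP3 passes only without NI bird 4 (0.0331) and ADAMTS8 passes with all birds and without NI bird 3 (0.0205).

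The related genes were taken from 7 lists, each gene by its brightest probe set. Of 105 genes measured, 2 were higher and 5 lower in SA, or 6.67%, against 1.55% of the 12920 genes on the array (0.58% higher and 0.967% lower). All 5 that were lower were matrix substrates, of which 19.2% passed. In the list of other ADAMTS genes 5.56% passed, and in that of activators, receptors and binding partners 4.35%. None passed among the other MMPs, the ADAM proteases, the further inhibitors and the plasminogen system. The lists were chosen with earlier results of these data known, so the pooled share is not independent evidence. The median difference over the 105 was -0.02, against 0.00 over all genes.

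None of the 12 other MMPs passed in limma (2 had an unadjusted p under 0.05, as did 12.4% of all genes). Their median difference was -0.09, and in 2 of them the groups did not overlap (11.5% of all genes). MMP1, a collagenase, lay at -0.79 (limma adjusted p = 0.146) and MMP13, also a collagenase, at 0.80 (adjusted p = 0.249). MMP23A lay at -0.19 (adjusted p = 0.669). A second probe set of MMP1 lay at 0.45, opposite in sign. MMP14 was in the list but could not be measured, since no probe set with deposited values had it as its only symbol.

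Of the 18 other ADAMTS and ADAMTS-like genes, ADAMTS12 was higher in SA, from 9.85 ± 0.392 (SD, n = 4) in NI to 10.9 ± 0.197 (SD, n = 3), or 1.10 on the log2 scale (limma adjusted p = 0.0679, standard error 0.21). Its other probe sets did not follow, at -0.55 (adjusted p = 0.145) and 0.03. With 1 bird left out the ADAMTS12 call held in 1 of 7 fits, without NI bird 3 (adjusted p = 0.0268), and the other 6 gave 0.102 to 0.171. ADAMTSL1 (0.48), ADAMTS3 (0.59) and ADAMTS15 (0.20) came next in order of p and did not pass. Their dimmer probe sets, named here after their values were seen, differed in sign and did not pass. They ran from -0.23 to 0.56 in ADAMTSL1, from -0.44 to 0.25 in ADAMTS3 and from -0.17 to 0.53 in ADAMTS15. In the RefSeq annotation of the king penguin ADAMTS15 is the neighbour of ADAMTS8, and ADAMTS5 that of ADAMTS1. ADAMTS5, an aggrecanase, lay at -0.09 (adjusted p = 0.922) and ADAMTS15 at 0.20 (adjusted p = 0.651), while ADAMTS8 lay at 1.42. A dimmer probe set of ADAMTS9, chosen here after its values were seen, was lower in SA (-1.04, limma adjusted p = 0.0913), whereas the brightest one lay at -0.28.

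None of 11 genes of the ADAM family passed in limma (1, ADAM23, at an unadjusted p under 0.05). ADAM23 lay at 0.63, ADAM10, a sheddase, at 0.22, ADAMDEC1 at 0.51 and ADAM17, the target of TIMP3, at 0.11. Of 7 further genes listed as inhibitors none passed (1 at an unadjusted p under 0.05). TIMP4, the remaining TIMP measured, had a difference of -0.33 (limma adjusted p = 0.718), and A2M, a general protease trap of plasma, at 0.10. PCOLCE2, which promotes rather than inhibits procollagen processing, lay at -0.37 (adjusted p = 0.337), and OVST at 0.14. The list also holds SERPINH1, a collagen chaperone that is no inhibitor of metalloproteases (-0.09, adjusted p = 0.877). None of 8 genes of the plasminogen system passed (2 at an unadjusted p under 0.05), among them plasminogen (PLG, 0.39), its binding protein ANXA2 (-0.70) and the ANXA2 partner S100A10 (0.19).

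Of 23 activators, receptors and binding partners TGFB2, a growth factor that controls matrix production, was higher in SA by 0.76 (standard error 0.15, limma adjusted p = 0.076), a call that held in 2 of 7 fits with 1 bird left out, without NI bird 1 and without SA bird 2. The other 5 fits gave an adjusted p of 0.128 to 0.233, and it did not pass with sex as a covariate. TGFB3 lay at 0.99 (adjusted p = 0.137), the proprotein convertase PCSK6 at 0.66 and KDR at 0.36, and these did not pass. Dimmer probe sets of these genes, named here after their values were seen, did not pass either. They lay at 0.18 for TGFB3, from -0.30 to -0.04 for PCSK6 and from -0.05 to 0.18 for KDR.

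Of 26 matrix substrates 5 were lower in SA and none was higher, with a median difference of -0.15. They were the collagen chains COL6A3 (-2.66), COL1A1 (-2.43) and COL1A2 (-0.95), fibronectin (FN1, -1.19) and the laminin chain LAMB1 (-0.96). Other probe sets of these genes, named here after their values were seen, were not all alike. Dimmer ones of COL6A3 (0.49), COL1A2 (0.33) and FN1 (0.25) had the opposite sign and did not pass. Others of FN1 (-1.37) and COL1A2 (-2.33) were lower and passed. Over all 76 probe sets of the list 12 were lower and none was higher, against 0.65% lower and 0.417% higher of all probe sets. The 12 are not separate results, since COL1A2 and FN1 each gave several of them. The proteoglycan DCN lay at -1.54 (limma adjusted p = 0.11) and did not pass, nor did COL3A1 (-2.23) and COL4A1 (-1.10), a chain of the basement membrane collagen cleaved by MMP2. A dimmer COL4A1 probe set lay at 0.22. COL4A2, also in the list, lay at 0.03 by its brightest probe set. Dimmer ones, named after their values were seen, included -1.48, -1.09 and 0.30, and these did not pass. Versican (VCAN) and aggrecan (ACAN), substrates of ADAMTS1 and ADAMTS8, lay at 0.07 and 0.03. A second VCAN probe set, at only the 9.3rd percentile of brightness and named here after its values were seen, was lower (-0.96, limma adjusted p = 0.0329). So was a dimmer probe set of the chemokine CXCL12, also named after its values were seen (-3.48, limma adjusted p = 0.012), whereas the brightest one lay at -0.23 (adjusted p = 0.503). With 1 bird left out COL1A2, COL6A3 and FN1 passed in all 7 fits, COL1A1 in 2 (without NI bird 4 and without SA bird 3) and LAMB1 in 1 (without NI bird 4). The lost fits gave an adjusted p of up to 0.185 for COL1A1 and 0.232 for LAMB1, which also did not pass with sex as a covariate. Of all 105 genes, 4 passed without NI bird 1, 3 without NI bird 2 and 3 without SA bird 1. In these fits 157, 95 and 346 of all probe sets passed, against 394 with all birds. With any other bird left out 5 or 6 of the 105 passed.

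**Figure D4:**
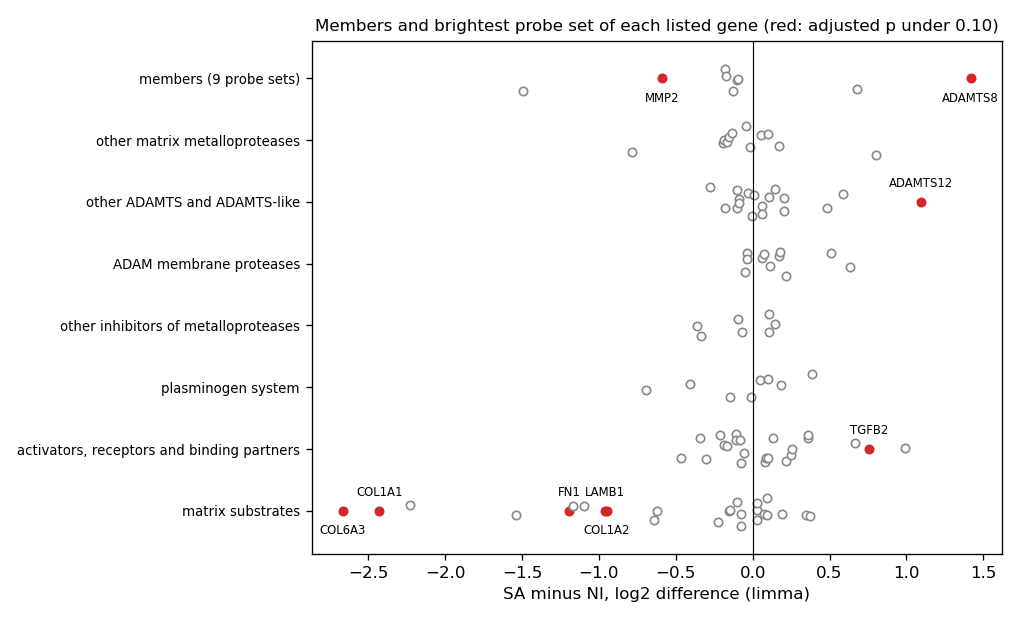
SA minus NI log2 difference (horizontal axis) of the 9 probe sets and of the brightest probe set of each gene in the 7 lists. Filled red points, with names, have a limma adjusted p under 0.10; the 5 red points of the matrix substrates lie between -2.66 and -0.95, and the vertical scatter within a row carries no value.

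Markers of other cell types were set beside these results. The mean log2 intensity over 15 fibroblast markers was between 9.51 and 10.03 in NI birds and between 8.77 and 9.33 in SA birds. Of these, 13 had a negative difference (49.4% of all genes) and 2, COL1A1 and COL1A2, were lower (0.967% of all genes). The mean was carried by COL1A1 (-2.43), COL3A1 (-2.23), DCN (-1.54), FBN1 (-1.42), COL5A2 (-1.17) and COL1A2 (-0.95), of which all but FBN1 are also in the list of matrix substrates. The other 9 markers lay between -0.51 and 0.05. The mean thus moved in the direction of MMP2 and TIMP3, and its part in their differences was not tested. Within NI, bird 4 had the lowest fibroblast mean and the lowest TIMP3, and bird 1 the highest of both. Birds 2 and 3 were in the opposite order, with fibroblast means of 9.68 and 9.92 and TIMP3 at 10.70 and 10.27. MMP2 was lowest in bird 1 (8.36), close to bird 4 (8.38). For 15 leukocyte markers the mean ran from 8.98 to 9.29 in NI and from 9.17 to 9.18 in SA, and for 14 endothelial markers from 9.85 to 9.97 and from 9.95 to 10.03. By the brightest probe set of each gene, none of the leukocyte, endothelial, smooth muscle, tendon or satellite cell markers passed in limma (2, 1, 0, 1 and 1 at an unadjusted p under 0.05). A dimmer probe set of the smooth muscle and pericyte marker MCAM, named after its values were seen, was lower (-0.80, limma adjusted p = 0.0384), whereas the brightest one lay at 0.10. In the other lists TFRC (-1.64), MBP (-1.24) and TNNC2 (-0.94) were lower and RBP7 (1.13) was higher, each the only gene of its list. The mean of the 7 nerve and Schwann markers was between 9.57 and 9.73 in NI and between 9.27 and 9.37 in SA, and that of the 11 skeletal muscle fibre genes between 13.76 and 13.81 in NI and between 13.53 and 13.72 in SA. Both means moved in the direction of MMP2 and TIMP3 without overlap, and their part in these differences was not tested. Of single genes 11.5% were without overlap, and no such share was computed for means of lists. Not all genes of the nerve or fibre list fell, since 4 of the 7 nerve and 7 of the 11 fibre genes had a negative difference (49.4% of all genes). The largest were MBP (-1.24), NEFL (-0.67) and NGFR (-0.56) in the nerve list and TNNC2 (-0.94) in the fibre list. The mean of 7 smooth muscle and pericyte markers overlapped, between 9.90 and 10.29 in NI and between 10.01 and 10.44 in SA. By the brightest probe set, 0 of these 7 had a negative difference (median 0.15), against 49.4% of all genes. This is the direction of ADAMTS8, and their part in its difference was not tested.

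The genes whose profile over the 7 birds was most like that of the called members were found by the root mean square distance between profiles, each centred on its own mean, among 26108 probe sets with 1 symbol. Nearest to MMP2 were HSPE1, a mitochondrial chaperone (distance 0.0697 log2), AADAC, an esterase (0.071), and LPXN, a focal adhesion protein (0.079). Their log2 differences were -0.55, -0.62 and -0.48, and only AADAC passed (limma adjusted p = 0.054). Nearest to ADAMTS8 were TANC2 (0.182), VTCN1 (0.218) and SYNJ2BP (0.223). They lay at 1.07, 1.45 and 1.15 and did not pass (limma adjusted p = 0.157, 0.134 and 0.122). With 7 birds and so many candidates near matches are common, and the distances are given as a description.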

How the data were processed

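The authors hybridized RNA of each bird to an Affymetrix chicken array. For each probe set the authors kept 1 perfect-match probe, the one with the highest summed rank over the arrays among probes brighter than empty array regions, and then quantile normalized the arrays. The deposited values are on a log2 scale, as their range shows. Limma is named, with no version, in the submitters' processing notes. Scanner files were not used here. The SA minus NI difference was fitted in R 4.3.3 (limma 3.58.1, lmFit and eBayes, 5 residual and 4.34 prior degrees of freedom). The fitting code was first checked on simulated arrays with known changes. The Benjamini-Hochberg adjustment covered all 36897 probe sets (threshold 0.10, as in the methods of the study), with no filter beyond that of the authors. Single probe sets were also tested by exact permutation over the 35 splits (9 probe sets and 3 pairs of probe sets). The platform annotation gave 1 symbol to 26108 probe sets, several to 171 and none to 10618. The members and lists were chosen with earlier results of these data known, so passing is not independent evidence. The genes named were the 6 members, the genes of each list that passed and up to 3 more with the smallest p, those nearest in profile to a called member, and markers that passed. ADAM17, ADAMTS5, A2M, SERPINH1, ADAMTS9, VCAN, ACAN, COL4A2, CXCL12, MCAM, FBN1, COL5A2, NEFL, NGFR and ACTA1 fall outside this rule. These were added after values were seen. Alternatives were other normalizations, filters, priors, weights of the arrays, terms for sex or for the replicate number, a stricter threshold, another probe set per gene and each bird left out. The precision is limited by the number of birds.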

Additional observations from a re-analysis of the deposited data

How the results depend on the processing

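Median centring, cyclic loess, repeated quantile normalization, leaving out the dimmest 25%, the trend and robust priors and array weights kept both member calls, MMP2 and ADAMTS8. The number of member probe sets that passed was 2 with all birds. It became 1 without the probe sets below the median brightness, because MMP2 itself was left out. It was 0 with sex as a covariate or at an adjusted p under 0.05 from limma, while 3 had an unadjusted p under 0.05 in both. With 1 bird left out it was 0 to 1, with 3 to 4 at an unadjusted p under 0.05. The exact permutation test was read at another threshold, an unadjusted p under 0.05 in each of 9 tests. Only MMP2 was under it, at 0.0286, the smallest p possible with these birds. With 4 birds against 3, only a probe set without overlap between the groups can reach this value. Such probe sets were 10.3% of all, and the share of all probe sets under this threshold of the exact test was not computed. The brighter TIMP2 probe set ran from -0.26 to 0.036 with 1 bird left out, with the sign turned without NI bird 2 (0.022) and without SA bird 3 (0.036).

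Over all probe sets 394 passed, 766 with array weights, 175 at an adjusted p under 0.05 and 95 to 487 with 1 bird left out. Of the 105 listed genes 7 passed, 3 at an adjusted p under 0.05 and 3 to 6 with 1 bird left out. With the probe set of smallest p per gene in place of the brightest, 10 passed (2 higher and 8 lower), with ADAMTS9, CXCL12 and VCAN gained. The labels do not say that the replicate numbers pair the birds, which are different animals, or what else the numbers may stand for. The deviations of same-numbered birds correlated at 0.29, -0.03 and 0.17, and those of differently numbered birds at -0.37 to 0.31. With the replicate block, which leaves NI bird 4 without a partner, 624 of all probe sets, 15 of the listed genes and 3 of the member probe sets passed (TIMP3, the second ADAMTS1 probe set and ADAMTS8), with TIMP3 at -1.83. MMP2 lay at -0.62 in this fit and did not pass (limma adjusted p = 0.105). The block leaves fewer residual degrees of freedom than the main fit.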
